A study of Mus musculus with 9 samples.

Results

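The S100 proteins are a family of small proteins, most of which bind calcium. The genes of the members examined here lie in separate blocks on mouse chromosome 3, next to the genes of the cornified skin barrier. The members examined were S100a1, S100a3, S100a4, S100a6, S100a8, S100a9, S100a10, S100a11, S100a13 and S100a14. Of these 10 genes, 9 had a row in the table of 19044 genes, and S100a9 was not analysed here. Expression high enough for a comparison was found for 7 members, S100a1, S100a3, S100a4, S100a6, S100a10, S100a11 and S100a13, whereas S100a8 and S100a14 stayed at or near 0 in every library.

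RNA-seq libraries came from 3 squamous cell carcinoma (SCC) cell lines, with 3 replicates of each. The SCC cells were cultured from tumours that chemical carcinogenesis had raised in the skin of FVB mice carrying floxed FAK alleles and the K14CreER transgene, a tamoxifen-inducible Cre driven by the keratin 14 promoter of basal keratinocytes. FAK, a kinase of integrin adhesions encoded by Ptk2, was deleted in culture with 4-hydroxytamoxifen. FAK-/- cells carry this deletion. FAK-WT and FAK-kd cells carry it too, and in addition stably express wild-type or kinase-deficient FAK from a retrovirus introduced into a FAK-/- clone and selected with hygromycin. Both expressing lines thus derive from the same clone, and the p-values below measure the spread between libraries of these lines, not between independently derived lines. The comparisons ask whether S100 transcript levels differ with FAK and with its kinase activity. FAK cannot be told apart here from transduction and selection, which FAK-/- cells are not stated to have undergone. Kinase activity cannot be told apart from the lower Ptk2 level of FAK-kd cells (below) or from other differences between single lines.

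S100 proteins carry a pair of EF-hand motifs, mostly bind calcium as dimers, and then dock onto target proteins such as annexins, cytoskeletal proteins or enzymes. Several also leave the cell and act on surface receptors including RAGE and TLR4. Members such as S100A4 and S100A6 are known from motile and mesenchymal-like tumour cells, S100A8 and S100A9 from neutrophils and inflamed keratinocytes, and S100A14 from epithelia.

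The targeted gene followed the labels, with Ptk2 at 213 to 216 CPM in FAK-WT, 155 to 176 in FAK-kd and 19.6 to 23.5 in FAK-/- libraries. CPM are counts scaled to a common library total after TMM, a correction for library composition. FAK-WT replicate 1 held only 779755 counts, 2.31% of the median of the other 8 libraries, which held between 25304994 and 37264636. With a detection floor of 3 counts, that shallow library cannot show a gene below 3.85 CPM. This floor is scaled to the library total without the TMM factor, which was 1.02 for this library. FAK-/- replicate 3 also stood apart: its counts differed from replicates 1 and 2 by a mean chi-square of 57.0 and 51.7 per gene, compared with 3.31 between replicates 1 and 2. FAK-kd replicate 1 did so to a lesser degree (17.1 and 18.9, compared with 5.26 between the other two). Values whose call or size rests on any of these libraries are therefore given with and without it. Basal keratinocyte keratins and E-cadherin were near 0, as Krt5 and Krt14 never exceeded 8 counts and Cdh1 never exceeded 4. Krt15 had at most 75 counts and differed between the lines (below). Krt10, a keratin of differentiating keratinocytes, was detected in all 9 libraries, at 5.88 to 9.57 CPM. Mesenchymal markers were all expressed (7 of 7), led by Vim at 7136 to 7988 CPM as line means.

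Measured per kilobase of transcript, so that genes can be set beside each other, the members fell into 3 tiers in every cell line. S100a4, the metastasis-associated partner of non-muscle myosin, was the most abundant, at 6597 ± 136 CPM per kilobase in FAK-WT, 7296 ± 475 in FAK-kd and 7450 ± 669 in FAK-/- cells (SD, n = 3). It ranked the second of 18856 genes with a symbol in each line. S100a6 (calcyclin, 2710 to 3123 as line means), S100a11 (1371 to 1570) and S100a10 (763 to 1095) followed, all within the 124 most abundant genes. A far lower tier held S100a1 (24.3 to 42.1) and S100a13 (25.6 to 37.1), with S100a3, a protein of the hair cuticle, below them (6.20 to 9.15). This order was the same in each line and no libraries overlapped between neighbours, except that S100a1 and S100a13 could not be ordered. With the longest annotated transcript in place of the mean length the 4 abundant genes kept their order, and the level of S100a3 dropped to between 1.19 and 1.75 CPM per kilobase.

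**Figure D1:**
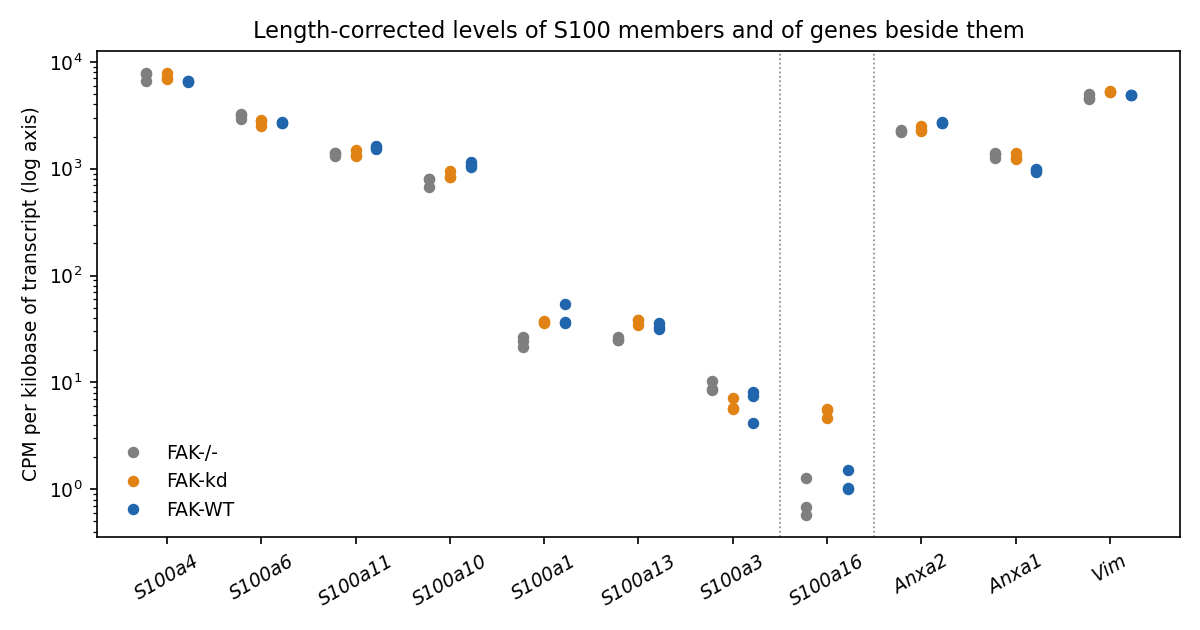
Length-corrected levels, in CPM per kilobase of transcript on a log axis, for the 7 expressed S100 members, for S100a16, and for Anxa2, Anxa1 and Vim as landmarks. Each point is 1 library. S100a4, S100a6, S100a11 and S100a10 lie at 676 or more in every library, and S100a1, S100a13 and S100a3 at 54.2 or less.

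Together the 9 measured members took up 0.592 ± 0.009% of all counts in FAK-WT, 0.587 ± 0.030% in FAK-kd and 0.616 ± 0.046% in FAK-/- libraries (SD, n = 3). The lines were not told apart on this share by the two-sided exact permutation test (p = 0.9 for FAK-WT against FAK-kd, and p = 0.4 for each line against FAK-/-). S100a4, S100a6, S100a11 and S100a10 made up between 99.0% and 99.4% of the members' counts.

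The genes sit in 2 blocks in the mm10 annotation of GENCODE. S100a1 to S100a9 occupy a stretch of 185 kb, and S100a11 and S100a10 lie within 44.2 kb of each other, 2825 kb further along. S100a1 (chr3:90511034-90514392, minus strand) and S100a13 (chr3:90514435-90524581, plus strand) start head to head, so that only 42 bases separate them. This interval carries no annotated exon and is shown on the plus strand because the transcripts on its sides differed between the lines in the same comparison (below).

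S100a1-S100a13 interval, chr3:90514393-90514434: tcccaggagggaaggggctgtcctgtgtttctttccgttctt

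The RefSeq promoter windows of S100a1 and S100a13 (250 bases before to 50 after the start, GRCm38.p6) were searched on both strands for 5 motifs. The AP-1 letters TGANTCA, present in 7.81% of 32851 such mouse windows, were not found in either. The CRE letters TGACGTCA, present in 1.79% of windows, and the ETS letters CCGGAA, present in 14.9%, were not found either. The same held for the TEAD letters GGAATG, in 14.7% of windows, and for the TATA letters TATAAA, in 13.6%.

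S100a1, a calcium sensor best known from muscle, was lower in FAK-/- cells than in both FAK-expressing lines. Its level was 16.8, 15.3 and 13.5 CPM in the FAK-/- libraries, 23.4, 23.2 and 22.3 in FAK-kd, and 34.0, 22.4 and 22.8 in FAK-WT. Every FAK-expressing library lay above every FAK-/- library. The highest value belonged to the shallow FAK-WT replicate 1, where it rests on 27 counts with a counting error of 19.2%. The log2 fold change was 0.64 (SE 0.12, adjusted p = 0.00156, 1.56-fold) for FAK-WT and 0.59 (SE 0.11, adjusted p = 0.00372, 1.51-fold) for FAK-kd against FAK-/-. Without FAK-WT replicate 1 the first was 0.57 (adjusted p = 0.00118), and without FAK-/- replicate 3 the differences were 0.53 (adjusted p = 0.000652) and 0.52 (adjusted p = 0.000978).

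S100a13, which takes part in the non-classical release of FGF1 and interleukin-1 alpha, was lowest in the same cells. It stood at 18.0, 17.9 and 19.0 CPM in FAK-/- libraries, at 27.4, 27.5 and 24.6 in FAK-kd, and at 22.7, 23.7 and 25.4 in FAK-WT. The FAK-/- libraries were again below all others. The log2 fold change against FAK-/- was 0.54 (SE 0.09, adjusted p = 0.00136) for FAK-kd and 0.41 (SE 0.10, adjusted p = 0.00662) for FAK-WT. The second lost its call without FAK-WT replicate 3 (0.36, adjusted p = 0.0738). Both comparisons share the FAK-/- libraries, so they are not independent of each other.

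FAK-WT and FAK-kd cells were not told apart on these genes. The difference between FAK-WT and FAK-kd was 0.04 for S100a1 (95% interval -0.21 to 0.30) and -0.12 for S100a13 (-0.33 to 0.08). Per kilobase, S100a13 and S100a1 were near parity, with a mean ratio of 1.06 in FAK-/- and 1.01 in FAK-kd libraries. In FAK-WT the ratio was 0.925 and 0.977 in the 2 deep libraries and 0.585 in the shallow one. Their transcripts share no 31-base word with each other or with any other gene.

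S100a10 (chr3:93555080-93564643, plus strand), also called p11, is the member that does not respond to calcium; it binds Anxa2 and holds plasminogen at the cell surface. The level was 600.5, 631.5 and 676.6 CPM in FAK-WT, 554.7, 490.7 and 484.0 in FAK-kd and 469.3, 467.4 and 392.8 in FAK-/- libraries. FAK-WT libraries were above all others, and the FAK-kd libraries lay between the other two lines with no overlap. The log2 fold change was 0.53 (SE 0.08, adjusted p = 0.000336, 1.44-fold) for FAK-WT against FAK-/- and 0.33 (SE 0.08, adjusted p = 0.0122, 1.25-fold) for FAK-WT against FAK-kd. The step from FAK-/- to FAK-kd (0.20, 95% interval 0.03 to 0.38, adjusted p = 0.168) missed the test. Without FAK-/- replicate 3, the lowest library, FAK-WT exceeded FAK-/- by 0.45 (adjusted p = 1.16e-05). The call against FAK-kd was lost when FAK-kd replicate 2, FAK-kd replicate 3 or FAK-WT replicate 3 was left out, with adjusted p between 0.0677 and 0.0962. Without FAK-kd replicate 1 it was 0.40 (adjusted p = 0.00855).

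S100a11 (calgizzarin, chr3:93520488-93526287, plus strand), a partner of Anxa1, showed smaller differences. It was measured at 789, 790 and 827 CPM in FAK-WT, 763, 693 and 674 in FAK-kd and 720, 713 and 669 in FAK-/- libraries. The FAK-WT libraries were the highest without overlap, but neither FAK-WT against FAK-/- (0.20, SE 0.07, adjusted p = 0.0532) nor FAK-WT against FAK-kd (0.18, SE 0.07, adjusted p = 0.0831) passed the test. DESeq2 called both (adjusted p = 0.0123 and 0.0179), and edgeR did too without FAK-/- replicate 3 (adjusted p = 0.0328 and 0.00841) or without FAK-kd replicate 1 (adjusted p = 0.0305 and 0.0224). S100a11 shares 48.9% of its 31-base words with 6 annotated pseudogenes, of which 2 had a row, with at most 10 counts in any library.

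The bases upstream of S100a11 are shown because they hold the AP-1 letters TGANTCA, in capitals, at 2 places. The factors that bind these letters are the Jun and Fos proteins. S100a11 was the only member of the 8 with a RefSeq promoter window in which they occurred, beside 7.81% of all such mouse windows. S100a10 and S100a14 had no window and were not searched. They are a match of letters and nothing was measured there.

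S100a11 upstream, chr3:93520246-93520487: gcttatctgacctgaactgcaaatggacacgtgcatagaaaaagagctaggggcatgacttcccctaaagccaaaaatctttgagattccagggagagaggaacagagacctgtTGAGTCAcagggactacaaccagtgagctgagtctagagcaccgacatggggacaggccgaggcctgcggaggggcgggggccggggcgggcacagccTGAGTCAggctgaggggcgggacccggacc

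S100a4 (chr3:90603771-90606045, plus strand) and S100a6 (chr3:90612882-90624181, plus strand) leaned the other way, with their lowest means in FAK-WT cells. S100a6 stood at 1644, 1612 and 1602 CPM in FAK-WT, 1909, 1943 and 1747 in FAK-/- and 1707, 1507 and 1661 in FAK-kd libraries. Its FAK-WT libraries were below every FAK-/- library and overlapped with FAK-kd. The difference between FAK-WT and FAK-/- cells was a log2 fold change of -0.21 (SE 0.07, adjusted p = 0.0412). Of the members' calls this one was lost in the most alternatives, as leaving out FAK-/- replicate 1 or 2, any FAK-WT library or FAK-kd replicate 3 ended it (adjusted p between 0.0695 and 0.156), as did DESeq2's size factors in edgeR (adjusted p = 0.0503). FAK-kd against FAK-/- gave a similar value that missed the test (-0.20, SE 0.07, adjusted p = 0.0800), and passed it without FAK-/- replicate 3 (-0.24, adjusted p = 0.0020).

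For S100a4 the libraries gave 2785, 2686 and 2783 CPM in FAK-WT, 3270, 2909 and 2948 in FAK-kd and 3241, 3293 and 2786 in FAK-/- cells. FAK-/- replicate 3 lay beside the FAK-WT libraries and apart from the other FAK-/- libraries. The difference between FAK-WT and FAK-/- was -0.18 (SE 0.07, adjusted p = 0.111), and -0.25 without FAK-/- replicate 3 (adjusted p = 0.000679). Against FAK-kd it was -0.15 (adjusted p = 0.200), and with that library left out of the shared fit the adjusted p became 0.0162. S100a4 shares 49.2% of its 31-base words with Gm42674, an overlapping gene model that had no row in the table.

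The upstream bases of S100a4, the most abundant member, hold the TATAAA letters, in capitals. These letters were added to the search after the windows had been seen. They also occurred in windows of S100a3, S100a8 and S100a9, and in 13.6% of all such mouse windows. They did not mark the abundant members, as S100a8 was nearly silent and the windows of S100a6 and S100a11 lacked them.

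S100a4 upstream, chr3:90603520-90603769: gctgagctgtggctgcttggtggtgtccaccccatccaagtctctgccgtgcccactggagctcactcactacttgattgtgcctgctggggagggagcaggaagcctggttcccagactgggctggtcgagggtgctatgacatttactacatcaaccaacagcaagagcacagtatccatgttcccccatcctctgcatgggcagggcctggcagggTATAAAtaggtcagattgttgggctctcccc

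S100a3 (chr3:90560578-90602702, plus strand) was a minor transcript, at 5.18, 5.13 and 6.24 CPM in FAK-/-, 4.35, 3.42 and 3.45 in FAK-kd and 2.52, 4.44 and 4.90 in FAK-WT libraries. The lowest of these is 2 counts in the shallow library. FAK-kd libraries were below all FAK-/- libraries, and the log2 fold change of -0.56 (SE 0.18) had an adjusted p of 0.0737. Without FAK-WT replicate 1 in the shared fit it was 0.0476. S100a3 shares 4.99% of its 31-base words with other genes, 1152 in all, of which 798 had a row.

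S100a8, a neutrophil and inflamed-skin protein, had 1 count in each of 3 libraries and 0 in the other 6. S100a14, an epithelial member, had 0, 4 and 5 counts in FAK-WT, 2, 2 and 0 in FAK-kd and 1, 1 and 0 in FAK-/- libraries. No fold change is given for either. Leukocyte markers were similarly scarce, with 8 of 12 genes in the table and a summed level of 2.51 to 2.85 CPM in the deep FAK-WT libraries, 2.31 to 3.13 in FAK-kd and 3.36 to 3.78 in FAK-/- libraries, most of it Cd68. The sum in the shallow FAK-WT library was 1.26 CPM, which is 1 count of Cxcr2.

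**Figure D2:**
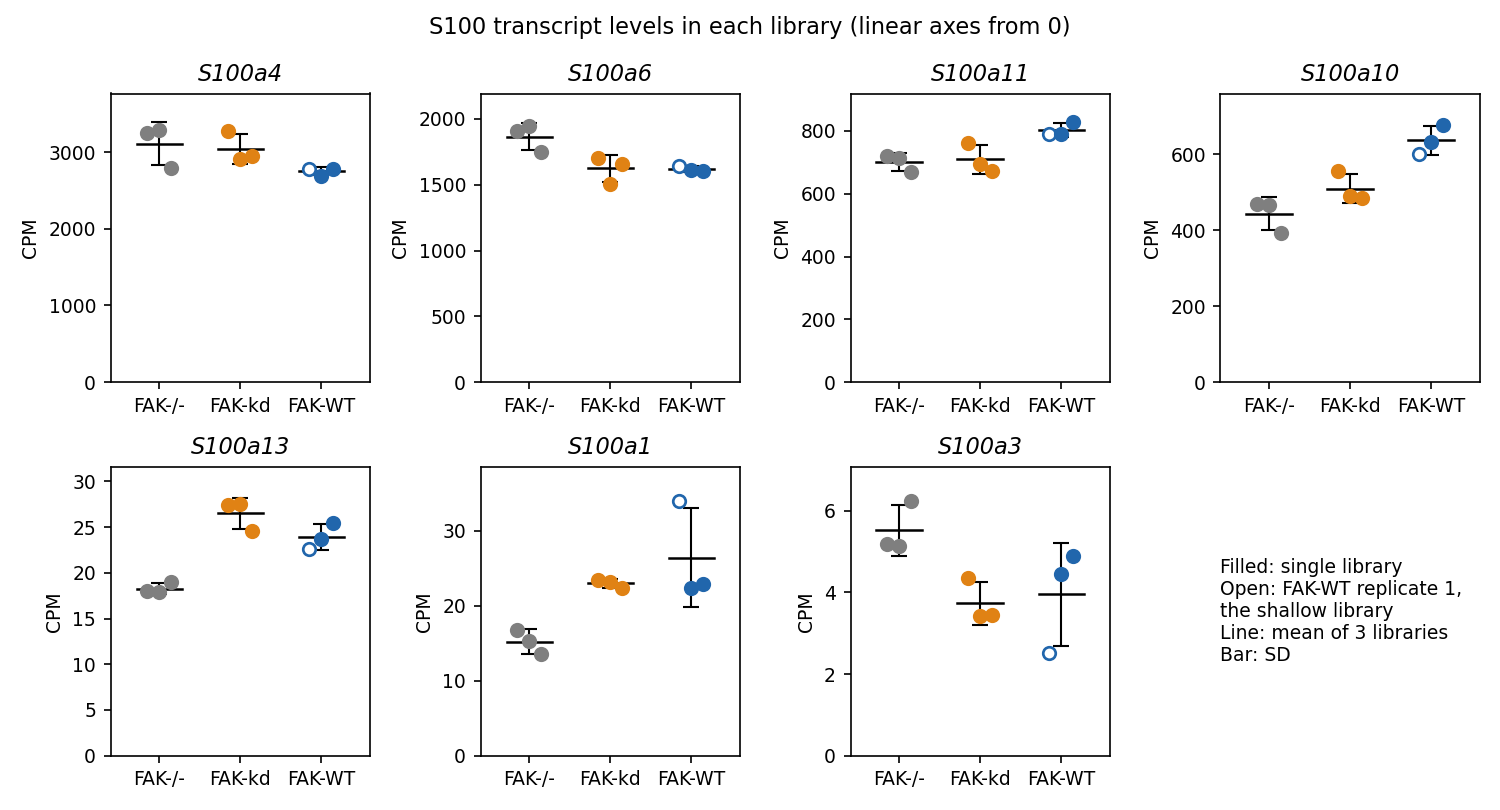
CPM of the 7 expressed S100 members in each of the 9 libraries, on linear axes from 0, with the mean and SD of each cell line. The open circle is FAK-WT replicate 1 (779755 counts). S100a13 and S100a1 are lower in all FAK-/- libraries than elsewhere, and S100a10 is highest in FAK-WT, while S100a4, S100a6 and S100a11 differ little.

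Across the 7 expressed members the differences were small. No member passed the study's threshold, which joins an adjusted p of at most 0.05 with a log2 fold change of 1 or more in either direction, in any of the 3 comparisons with edgeR or with DESeq2, whereas 5.38% of all genes did so for FAK-WT against FAK-/-, 5.26% for FAK-WT against FAK-kd and 2.01% for FAK-kd against FAK-/-. The 95% intervals of all 7 expressed members stayed between log2 values of -1 and 1 in each comparison. By the adjusted p alone, 4 of 9 members were called for FAK-WT against FAK-/- beside 18.0% of all genes and 26.7% of the 12235 genes kept by edgeR's expression filter. Of these, 3 were higher, beside 8.01% of all genes, and 1 was lower, beside 9.96%. For FAK-WT against FAK-kd 1 member, S100a10, was called, beside 17.7% of all genes and 26.2% of the kept genes. It was higher, beside 7.58% of all genes that were higher and 10.2% that were lower. For FAK-kd against FAK-/- 2 members, S100a1 and S100a13, were called, beside 7.84% of all genes and 11.9% of the kept genes. Both were higher, beside 3.97% of all genes that were higher and 3.88% that were lower. At an unadjusted p under 0.05 there were 6, 2 and 5 members, beside 29.0%, 28.5% and 20.4% of all genes. DESeq2 called 5, 2 and 3 members by its adjusted p, beside 16.2%, 16.1% and 7.42% of all genes.

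Libraries of the 2 lines compared did not overlap for 7 of the 7 expressed members between FAK-WT and FAK-/-, for 3 between FAK-WT and FAK-kd and for 5 between FAK-kd and FAK-/-, beside 42.5%, 47.7% and 35.3% of the kept genes. The first count includes S100a4, where FAK-WT replicate 1 (2784.6 CPM, counting error 2.13%) and FAK-/- replicate 3 (2785.8 CPM) were nearly tied. For each such member the exact permutation test gave p = 0.1, the smallest that 3 libraries against 3 allow. The members' median log2 fold change was 0.20, 0.04 and 0.02 in the 3 comparisons, and that of all kept genes was -0.02, -0.02 and 0.01. Levels are per total RNA in bulk, so fewer cells of a kind and less RNA per cell cannot be told apart.

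**Figure D3:**
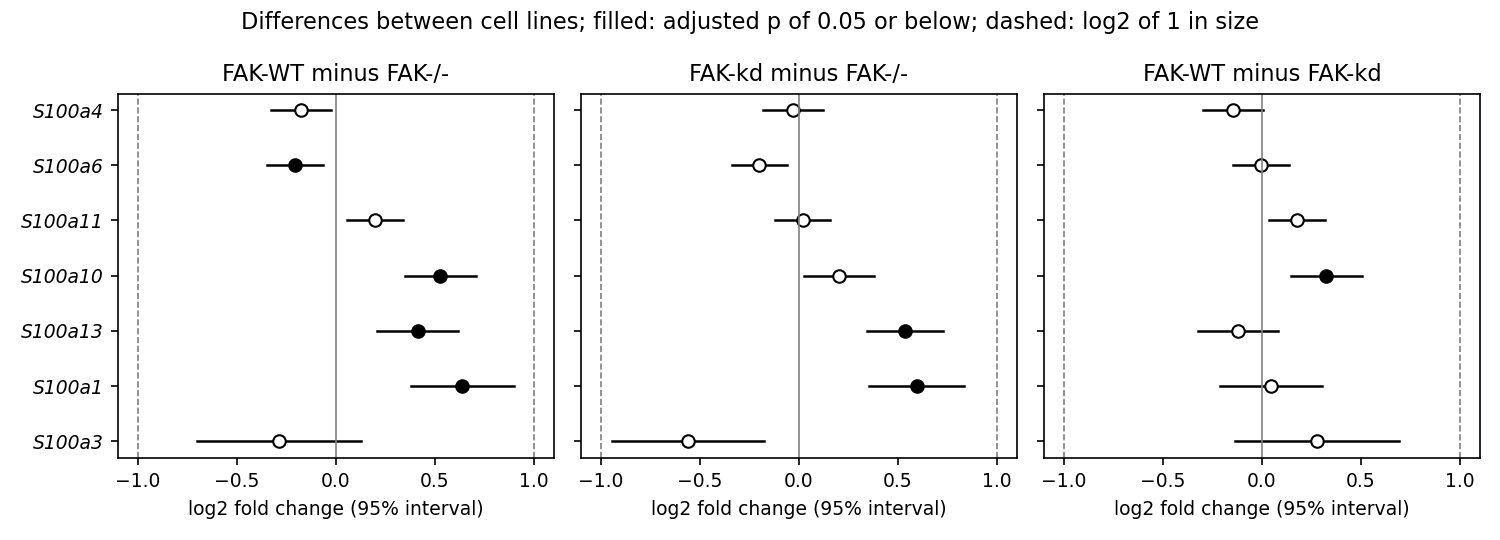
Log2 fold change with its 95% interval for the 7 expressed members in the 3 comparisons (edgeR). Filled points have an adjusted p of 0.05 or below and the dashed lines mark values of -1 and 1, which no interval reaches. The filled points are S100a10, S100a13, S100a1 and S100a6 for FAK-WT minus FAK-/-, S100a13 and S100a1 for FAK-kd minus FAK-/-, and S100a10 for FAK-WT minus FAK-kd.

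The annexins and other intracellular partners were compared with the members they bind. Anxa2, the binding partner of S100a10, was likewise higher in FAK-WT cells, by 0.25 against FAK-/- (SE 0.06, adjusted p = 0.00905) and 0.19 against FAK-kd (adjusted p = 0.0432). The first was lost without FAK-WT replicate 2 or 3 (adjusted p = 0.0531 and 0.0774), and the second without any FAK-WT library, FAK-kd replicate 2 or 3, or FAK-/- replicate 1 or 2 (adjusted p up to 0.200). Per kilobase, S100a10 stood at 0.408 ± 0.019 of Anxa2 in FAK-WT, 0.372 ± 0.005 in FAK-kd and 0.337 ± 0.028 in FAK-/- libraries (SD, n = 3). The 3 lines did not overlap on this ratio, and each exact permutation test gave the smallest possible p of 0.1.

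Anxa1, a phospholipid-binding partner of S100a11, was lower in FAK-WT cells, by -0.47 against FAK-/- (SE 0.07) and -0.43 against FAK-kd (SE 0.07), with adjusted p of 0.00015 and 0.000306. Its level was 1613, 1534 and 1629 CPM in FAK-WT, 2325, 2057 and 2052 in FAK-kd and 2295, 2248 and 2060 in FAK-/- libraries. The ratio of S100a11 to Anxa1 per kilobase was therefore 1.63 ± 0.04 in FAK-WT compared with 1.07 ± 0.02 in FAK-kd and 1.03 ± 0.02 in FAK-/- libraries (exact permutation p = 0.1 for each).

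**Figure D4:**
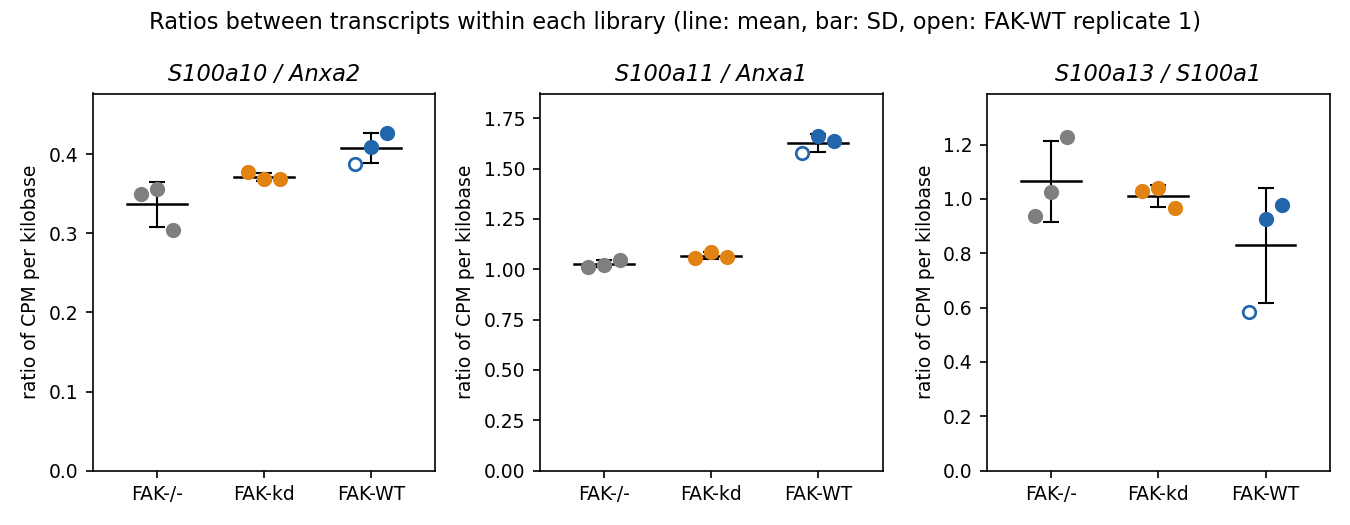
Ratios of length-corrected levels within each library for S100a10 to Anxa2, S100a11 to Anxa1 and S100a13 to S100a1, with the mean and SD of each line. The S100a11 to Anxa1 ratio separates FAK-WT (1.58 to 1.66) from both other lines (1.01 to 1.09), and the open circle is the shallow FAK-WT replicate 1.

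Ahnak, a giant scaffold bound by the S100a10-Anxa2 complex, exceeded its FAK-/- level in FAK-WT cells (0.31, SE 0.09, adjusted p = 0.0267), a call lost without FAK-WT replicate 1 or 2 or FAK-/- replicate 1 (adjusted p between 0.0585 and 0.107). Among the 18 partner genes, 5 were higher and 6 lower at the adjusted p for FAK-WT against FAK-/-. The shares of all genes were 8.01% and 9.96%. For FAK-WT against FAK-kd 4 were higher and 5 lower, beside 7.58% and 10.2% of all genes. For FAK-kd against FAK-/- 2 were higher, beside 3.97% of all genes. In the same order, 26.7%, 26.2% and 11.9% of the genes kept by the expression filter were called in either direction. The median of the 16 kept partners was 0.02, 0.01 and 0.05. Only Tgm2 and Plau also passed the fold-change minimum. Tgm2, a transglutaminase that can cross-link S100 proteins, stood at 59.7, 67.2 and 67.6 CPM in FAK-kd, above 21.4, 19.0 and 20.7 in FAK-WT and 24.9, 26.1 and 23.9 in FAK-/- libraries (log2 fold change -1.70 for FAK-WT against FAK-kd and 1.38 for FAK-kd against FAK-/-). Plau, the urokinase that activates plasminogen, was higher in FAK-WT than in FAK-kd cells (1.06, SE 0.17, adjusted p = 0.000294).

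Of the 7 receptors listed for secreted S100 proteins, 6 had a row, and Tlr4 alone was called in 1 comparison, at 32.7, 31.6 and 34.2 CPM in FAK-WT against 24.9, 24.4 and 16.5 in FAK-/- libraries (0.59, SE 0.14, adjusted p = 0.00749). The difference was 0.41 without FAK-/- replicate 3, the lowest library, and its call was lost without FAK-WT replicate 3 (adjusted p = 0.0564). FAK-kd libraries lay between them, from 27.0 to 29.5. Ager, which encodes RAGE, had at most 23 counts in any library and was not called. Bsg, a receptor of S100A9, was abundant, at 683 to 775 CPM over all 9 libraries, with a log2 fold change of 0.06 (95% interval -0.08 to 0.20) for FAK-WT against FAK-/-.

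Larger differences were seen in S100 genes outside the 10 members. S100a16, which neighbours S100a14, had 4.62, 3.86 and 4.66 CPM in FAK-kd but 0.569, 1.06 and 0.480 in FAK-/- libraries, and 0.852 and 0.836 in the deep FAK-WT libraries, with 1 count in the shallow one. Its log2 fold change was 2.65 (SE 0.29, adjusted p = 3.3e-05) for FAK-kd against FAK-/- and -2.35 (SE 0.32, adjusted p = 8.4e-05) for FAK-WT against FAK-kd. S100a7a (psoriasin family) reached 1.73 and 2.25 CPM in the deep FAK-WT libraries and 0.480 to 0.710 in the other lines, with log2 fold changes of 1.44 (adjusted p = 0.0132) against FAK-/- and 1.56 (adjusted p = 0.00739) against FAK-kd. It had no count in FAK-WT replicate 1, so that the libraries overlapped, and neither difference was called by DESeq2 (adjusted p = 0.0803 and 0.0504) or without FAK-WT replicate 3 (adjusted p = 0.164 and 0.113). S100b passed the threshold for FAK-WT against FAK-/- on at most 12 counts a library, and not with DESeq2 (adjusted p = 0.151) or without FAK-WT replicate 3 (adjusted p = 0.140).

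Genes of the epidermal differentiation complex that surround the S100 blocks were nearly silent. Of 51 listed barrier genes 21 had a row and 3 passed the expression filter, and their summed level was 2.22 to 2.90 CPM in the deep FAK-WT libraries (1.26 in the shallow one, from 1 count), 3.51 to 4.38 in FAK-kd and 3.19 to 4.13 in FAK-/- libraries. Sprr1a, a precursor of the cornified envelope, gave log2 fold changes of -2.31 for FAK-WT against FAK-/- (SE 0.43, adjusted p = 0.00132) and -2.74 for FAK-WT against FAK-kd (SE 0.43, adjusted p = 0.000285), from at most 73 counts. Its single count in FAK-WT replicate 1 amounts to 1.26 CPM, above FAK-/- replicates 1 and 2, which had 40 and 26 counts in far deeper libraries, so that FAK-WT and FAK-/- libraries overlapped. Ivl (-1.70) and Lor (-3.74), further envelope proteins, were also lower with FAK-WT than without FAK, on at most 32 and 17 counts. Ivl lost its call without FAK-/- replicate 3 (adjusted p = 0.143), among other libraries, and Lor without FAK-WT replicate 3 (adjusted p = 0.204), among others. Gm4858, another gene inside the chromosomal span of the members, passed the threshold for FAK-WT against FAK-/- (6.32, adjusted p = 0.00467). It had at most 16 counts in a library and did not pass the expression filter.

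The summed levels of cell type markers also differed in range between the lines. The summed epidermal keratinocyte markers, nearly all of them Itga6, came to 170 to 174 CPM in FAK-WT, 254 to 275 in FAK-kd and 284 to 299 in FAK-/- libraries. Krt15, a small part of that sum, had 0, 10 and 9 counts in FAK-WT, 63, 75 and 56 in FAK-kd and 55, 38 and 58 in FAK-/- libraries. Its log2 fold change was -2.68 for FAK-WT against FAK-/- (SE 0.36, adjusted p = 6.46e-05) and -2.88 against FAK-kd (SE 0.35, adjusted p = 3.07e-05). The 3 differentiated keratinocyte markers with a row, mostly Krt10, came to 6.01 to 6.57, 6.80 to 7.44 and 8.06 to 10.8 CPM. Fibroblast markers (4 of 5 genes in the table) summed to 16.4 to 17.6, 25.1 to 36.5 and 31.7 to 36.3 CPM. Most of that sum was Pdgfra, a growth factor receptor, at 10.1 to 11.7, 18.3 to 28.4 and 26.8 to 33.5 CPM. Its log2 fold change was -1.44 for FAK-WT against FAK-/- (SE 0.16, adjusted p = 1.35e-05) and -1.11 against FAK-kd (SE 0.16, adjusted p = 0.000157). The fibroblast list did not move one way, as its median log2 fold change for FAK-WT against FAK-/- was 0.07. Col1a2 averaged 4.90 CPM in FAK-WT and 2.50 in FAK-/- libraries (adjusted p = 0.0584), and Dcn was higher in FAK-WT (2.24, adjusted p = 0.0426) on at most 19 counts. In FAK-kd libraries Col1a2 averaged 6.11 CPM, above FAK-/- (log2 fold change 1.29, SE 0.25, adjusted p = 0.00469). For Krt15, Pdgfra and Col1a2 no values without single libraries are given. The 7 mesenchymal markers summed to 8959 to 9230, 9892 to 10665 and 8600 to 9781, mostly Vim, and did not move one way. Snai2 averaged 46.2, 24.8 and 19.8 CPM in FAK-WT, FAK-kd and FAK-/- libraries. Its log2 fold change for FAK-WT against FAK-/- was 1.21 (SE 0.11, adjusted p = 1.05e-06). By the adjusted p, 1 of the 7 was higher in that comparison and 2 were lower, beside 8.01% and 9.96% of all genes. Endothelial markers summed to 1.47 to 2.05 CPM in the deep FAK-WT libraries, 0.210 to 0.322 in FAK-kd and 0.300 to 0.473 in FAK-/- libraries. In FAK-WT most of that sum was Cdh5, and the markers did not move one way. Pecam1 averaged 0.077 CPM in FAK-WT, 0.188 in FAK-kd and 0.220 in FAK-/- libraries, on at most 9 counts. Kdr had at most 3 counts in any library. Cdh5, the cadherin of endothelial cells, had 1, 74 and 43 counts in FAK-WT, 0, 0 and 2 in FAK-kd and 6, 3 and 4 in FAK-/- libraries, and was called for FAK-WT against FAK-/- (3.42, SE 0.53, adjusted p = 0.000272). Their part in the differences of the S100 genes was not tested.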

How the data were processed

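RNA-seq libraries of 3 SCC cell lines (FAK-/-, FAK-WT and FAK-kd, 3 replicates a line) were grouped by the sample labels. RNA with TruSeq v2 preparation, which keeps no strand information, was sequenced in pairs by the authors, who pseudoaligned the reads with kallisto (0.43.1 in the submitters' processing notes) and used tximport to sum transcripts per gene. As deposited, the values are expected counts, rounded to whole numbers by the authors and not scaled to library size, and genes at zero throughout had been removed. The transcriptome release is not given in the sources used here. Libraries held 779755 to 37264636 counts.

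Counts of all 19044 genes were tested in 1 fit of the 9 libraries with edgeR 4.0.16 in R 4.3.3 (TMM, quasi-likelihood test, cell line as the only factor, Benjamini-Hochberg adjustment over all genes). The threshold was an adjusted p of 0.05 and a log2 fold change of 1 in size. The call by adjusted p alone was added after seeing that no member reached the fold-change minimum. Levels and ratios of single genes were compared with two-sided exact permutation tests. Per-kilobase levels divide CPM by the mean length of a gene's protein-coding transcripts. Errors from counting, and the 3-count floor, leave out all other sources of error. Symbols and positions came from GENCODE (mm10), and promoter sequences from RefSeq (GRCm38.p6), which matched 8 of 10 members. Shared 31-base words were counted over annotated transcripts.

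The members and the gene lists were chosen with earlier results of these data known. Named in the text are all members, Anxa2, Anxa1, Ahnak, Ager, Tlr4 and Bsg by role, and up to 4 genes per list and comparison past the threshold. That rule did not cover the lists of cell type markers, of which not every gene past the threshold is named. The promoters shown, Ptk2, Vim and the cell type markers named beside them were chosen after values were seen or by role. Alternatives were DESeq2 1.42.0, its size factors in edgeR, library size without TMM, filterByExpr, fits of only 2 lines, a replicate block, no fold-change minimum, the longest transcript and leaving out each library. For genes outside the members the alternatives were added after the data were seen. Tested on simulated data with these depths and 200 genes changed by a log2 fold change of 2, edgeR recovered 199 in each comparison with FAK-WT among 11875 genes, with 4 other calls against FAK-/- and 9 against FAK-kd. The changed genes were drawn only from well-expressed genes. Recovery of low-count genes, or of differences as small as those of the members, was therefore not measured.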

Additional observations from a re-analysis of the deposited data

Results flagged for a closer look

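S100a10 differed between the effects of FAK-WT and FAK-kd over FAK-/- cells, as tested directly between these lines (log2 fold change 0.33, SE 0.08, edgeR adjusted p = 0.0122). Its level was higher in 3 of 3 FAK-WT libraries than in all FAK-kd libraries. The call held in 12 of 15 alternatives, with values between 0.28 and 0.40.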

How the results depend on the processing

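No member passed the threshold under any alternative that kept the fold-change minimum. Without that minimum the counts were 4 for FAK-WT against FAK-/-, 1 for FAK-WT against FAK-kd and 2 for FAK-kd against FAK-/-. By adjusted p alone, leaving out 1 library gave 2 to 6 members for FAK-WT against FAK-/-, 0 to 3 for FAK-WT against FAK-kd and 2 to 3 for FAK-kd against FAK-/-. The share of all genes called moved in the same fits, from 10.6% to 23.1%, 10.9% to 28.1% and 3.74% to 11.6%, and in the first 2 comparisons it was lowest without FAK-WT replicate 3 and highest without FAK-/- replicate 3. The count for FAK-WT against FAK-kd was 2, S100a10 and S100a11, with library size in place of TMM, with filterByExpr, with DESeq2 and with only the 2 lines in the fit. It was 0 without FAK-kd replicate 2, FAK-kd replicate 3 or FAK-WT replicate 3, and 3 without FAK-/- replicate 3. The 2 in FAK-WT against FAK-/- came without FAK-WT replicate 3. The cause was not tested.

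Of 315 log2 fold changes of single members under the alternatives, 271 kept their direction and side of the adjusted p, 11 lost and 20 gained a call, and 13 changed sign, all of them in differences that were not called and lay near 0. For FAK-WT against FAK-kd, S100a6 turned from -0.0059 to 0.012 with DESeq2's size factors, 0.025 with library size only, 0.011 with filterByExpr and 0.011 with DESeq2, and ranged from -0.053 to 0.039 when 1 library was left out. In the same comparison S100a1 ranged from -0.022, without FAK-WT replicate 1, to 0.13. For FAK-kd against FAK-/-, S100a4 ranged from -0.10 to 0.0072 and S100a11 from -0.043 to 0.050 when 1 library was left out.

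The replicate numbers did not pair the libraries. Deviations from the group means correlated with a mean r of -0.00768 between libraries of the same number (9 pairs) and 0.00353 between others (18 pairs). With the number as a replicate block the same counts of members were called by adjusted p (4, 1 and 2), and 0 passed the threshold. FAK-WT replicate 1 adds little to genes near its floor of 3.85 CPM (without TMM), which covers S100a3.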
